A study of Homo sapiens with 12 samples.

Results

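The genes described here are 10 Kruppel-like factor (KLF) genes, KLF2, KLF3, KLF4, KLF5, KLF6, KLF7, KLF9, KLF10, KLF11 and KLF13. They were taken by name from the gene symbols of a count table with 54261 rows, with earlier results of these data known. Shares over all tested genes are therefore set beside them as description only. All 10 were present and passed the filter on low counts, as did 17572 symbols in all. RNA was sequenced from cells labelled as 2 established human colorectal cancer cell lines. The 4 groups were lactate-treated SW480, untreated SW480, lactate-treated DLD1 and untreated DLD1 cells, each with 3 libraries, which the study's design text calls biological replicates. It does not say whether they came from separate cultures, so p-values measure only the spread between libraries. The labels used here give neither the dose nor the form nor the duration of the lactate treatment. Both named lines are established cultures, each from a single tumour. The libraries labelled SW480 largely lacked colorectal epithelial markers (below), and the identity of their cells was not tested.

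KLF proteins are transcription factors that share zinc fingers at their carboxyl end, which bind GC-rich and CACCC-type DNA elements, and differ in the part that recruits other proteins. KLF2, KLF4, KLF5, KLF6 and KLF7 act mainly as activators, KLF3 recruits the corepressor CtBP, and KLF9, KLF10, KLF11 and KLF13 recruit the corepressor SIN3A. In the intestinal epithelium KLF5 is known from dividing crypt cells and KLF4 from differentiated cells, where it restrains division, and several KLF genes are induced quickly by growth factors, stress or hormones.

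Promoter sequence is shown for KLF6, KLF4 and KLF2, because these 3 activator genes rose with lactate in SW480 (below) and have 1 annotated start each. Each line gives the 250 bases before the RefSeq transcription start on GRCh38.p14, read 5′ to 3′ on the gene's strand. Capitals mark GC boxes (GGGCGG, the kind of element that KLF and SP proteins bind), E-boxes (CACGTG) and MEF2 sites, each on either strand.
KLF6, chr10:3785210-3785459, minus strand: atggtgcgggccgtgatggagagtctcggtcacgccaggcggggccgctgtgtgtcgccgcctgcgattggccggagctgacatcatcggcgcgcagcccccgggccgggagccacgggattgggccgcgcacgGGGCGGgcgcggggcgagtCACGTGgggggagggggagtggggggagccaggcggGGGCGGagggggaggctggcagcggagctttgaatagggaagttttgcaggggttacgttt
KLF4, chr9:107489770-107490019, minus strand: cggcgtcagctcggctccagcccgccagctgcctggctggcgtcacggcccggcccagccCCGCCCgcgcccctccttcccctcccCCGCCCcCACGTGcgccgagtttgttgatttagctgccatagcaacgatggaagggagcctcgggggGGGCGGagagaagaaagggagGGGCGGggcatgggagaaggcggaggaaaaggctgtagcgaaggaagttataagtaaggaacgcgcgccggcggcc
KLF2, chr19:16324576-16324825, plus strand: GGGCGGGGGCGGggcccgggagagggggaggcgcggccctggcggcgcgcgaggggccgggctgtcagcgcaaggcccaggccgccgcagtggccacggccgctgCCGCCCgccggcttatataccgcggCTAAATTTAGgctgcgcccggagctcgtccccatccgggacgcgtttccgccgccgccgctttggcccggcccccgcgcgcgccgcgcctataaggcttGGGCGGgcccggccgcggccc

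The KLF6 stretch held 2 GC boxes and 1 E-box, which starts 97 bases before the transcription start. The KLF4 stretch held 4 GC boxes and 1 E-box, at 157 bases before the start. The KLF2 stretch held 4 GC boxes and no E-box, and it alone of the 3 held a MEF2 site, at 120 bases before the start; MEF2 factors are known to activate KLF2. RefSeq windows of 300 bases (250 before to 50 after the start) were matched for 8 of the 10 genes, with 13 windows between them. GC boxes lay in 8 of these 13 windows, against 45% of all 35116 windows, and E-boxes in 4 of 13 (KLF4, KLF6, KLF7 and KLF11), against 7.26%. The MEF2 site lay in 1 of 13, against 2.99%, and the CArG box, the site of serum response factor, in 1 of 13 (KLF7), against 1.29%. The AP-1 site (TGANTCA) lay in 0 of 13, against 7.71%. The other 6 of 11 motifs searched on both strands were CACCC (7 of 13, against 59.9%), CCAAT (6, 34.6%), TATAAA (1, 11.5%), the hypoxia response core ACGTG or GCGTG, which overlaps the E-box (10, 48.4%), TGACG (4, 24.6%) and GAANNTTC (1, 6.77%). These are matches of letters and say nothing of binding. The windows compared were not matched for GC content, whose median over all windows was 58.7%. Among the genes with an E-box it was 69% for KLF4, 70.7% for KLF6, 77.3% and 75.3% for KLF11, and 42.7% to 70% for KLF7. On the same build KLF5 lies at chr13:73054976-73077538 (plus strand), KLF7 at chr2:207074137-207173851 (minus), KLF9 at chr9:70384604-70414657 (minus) and KLF11 at chr2:10043550-10054836 (plus).

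Total counts per library ran from 12302311 to 22662063, and a single KLF gene had between 56 and 6454 counts in a library. Colorectal epithelial markers were clear in DLD1 and largely missing from the libraries labelled SW480. EPCAM averaged 0.609 CPM (the usual library-size scaled count, from the library's total) in SW480 lactate and 0.965 CPM in SW480 control libraries, and 671 and 701 CPM in DLD1 lactate and control libraries. Of 6 epithelial markers, 4 (EPCAM, CDH1, CDX2 and VIL1) averaged under 2 CPM in both SW480 groups and 0 in either DLD1 group, while KRT8 averaged 908 and 1316 CPM in SW480 lactate and control. The 6 summed to 1260 to 1508 CPM in SW480 lactate, 1854 to 2207 CPM in SW480 control, 7868 to 8695 CPM in DLD1 lactate and 5900 to 8138 CPM in DLD1 control libraries. Of 6 markers of fibroblasts, endothelium and immune cells, the fibroblast genes DCN (65.4 and 81.2 CPM) and COL1A1 (48.8 and 21.1 CPM) were present in SW480 lactate and control, and the others averaged under 2 CPM there. The 6 summed to 105.8 to 123.7 CPM in SW480 lactate, 98.9 to 109.4 CPM in SW480 control, 5.93 to 6.91 CPM in DLD1 lactate and 3.28 to 4.999 CPM in DLD1 control libraries. SW480 below names the libraries so labelled, and whether their cells are of that line was not tested. What part these markers have in the results was not tested either. Within DLD1, control replicates 2 and 3 stood apart from their group along transcript GC content, in opposite directions (Spearman's rho across 12032 genes -0.79 and 0.82). The same rho was 0.49, 0.35 and -0.61 in SW480 lactate replicates 1 to 3, and 0.16, -0.51 and 0.46 in DLD1 lactate replicates 1 to 3. It lay between -0.1 and 0.1 in the SW480 controls and was 0.3 in DLD1 control 1.

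Before lactate, the leading KLF genes differed between the lines. Levels of different genes were compared as CPM per kilobase of the longest annotated transcript. In untreated SW480 cells KLF10 stood highest, at 42.1 ± 1.31 CPM per kb (SD, n = 3), followed by KLF5 (32.5 ± 1.499) and KLF4 (28.5 ± 2.41), whose libraries overlapped. KLF6 and KLF9 came next at 19.99 ± 1.59 and 13.6 ± 2.13 CPM per kb, and KLF3 at 12.6 ± 0.955, within the range of KLF9. KLF2, KLF7, KLF11 and KLF13 lay at 5.82, 4.25, 3.48 and 1.72 CPM per kb, and KLF2 and KLF7 overlapped. In untreated DLD1 cells KLF5 stood far above the others, at 75.3 ± 8.61 CPM per kb. KLF10 (22.5 ± 2.35), KLF6 (20.3 ± 0.801) and KLF3 (19.97 ± 3.94) followed, each overlapping its neighbour, then KLF4 at 13.8 ± 2.01. KLF9 and KLF11 (7.47 and 6.40) overlapped, as did KLF7 and KLF2 (3.57 and 3.12), and KLF13 was again lowest, at 0.960 CPM per kb.

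**Figure D1:**
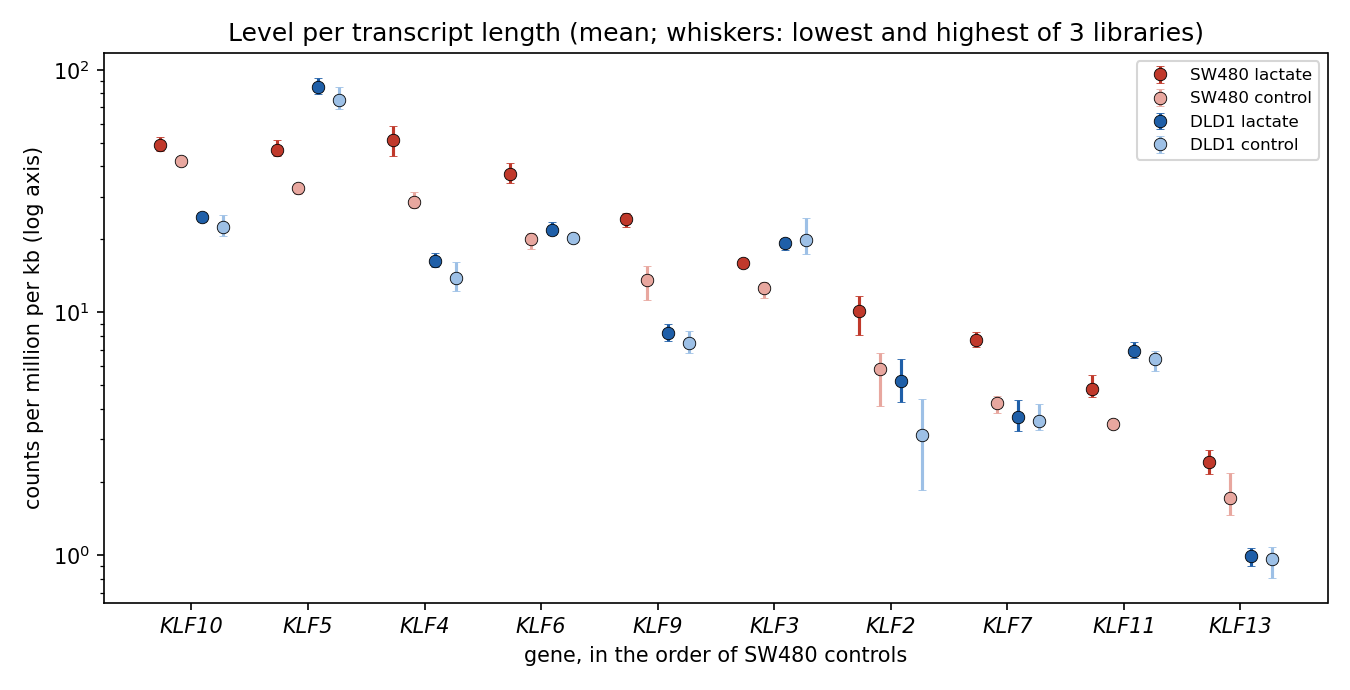
Level of each KLF gene in CPM per kilobase of transcript (log axis) in the 4 groups, as the mean with whiskers to the lowest and highest of 3 libraries; genes run in the order of untreated SW480. KLF5 stands at 84.8 and 75.3 in DLD1 lactate and control libraries, above each other gene there, and KLF13 is lowest in each group.

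Between the untreated lines (DLD1 over SW480), 9 of the 10 genes were called at an adjusted p under 0.05 in edgeR's quasi-likelihood test, against 70.8% of all tested genes, so a difference was the usual case. KLF5 was higher in DLD1, with a log2 difference of 1.15 ± 0.11 (SE; adjusted p 1.47e-07), as were KLF11 (0.81 ± 0.12) and KLF3 (0.61 ± 0.13). KLF4 was lower in DLD1, by -1.11 ± 0.12 (adjusted p 1.31e-06), and so were KLF10 (-0.97 ± 0.10), KLF2 (-0.95 ± 0.27), KLF9 (-0.93 ± 0.13) and KLF13 (-0.92 ± 0.18). KLF6, at 94.3 ± 3.73 CPM in DLD1 and 93.1 ± 7.39 CPM in SW480 controls, was not called (log2 -0.05, 95% interval -0.25 to 0.16). The call of KLF7 (-0.32 ± 0.13, adjusted p 0.0451) held without SW480 control 1, DLD1 control 2 or DLD1 lactate 1 or 3, and was lost without each other library. It was also lost in DESeq2 (0.0718), with the control libraries fitted alone (0.117), when no filter was used (0.0881), under median-of-ratios scaling (0.0615) and with the trend along GC content and length removed, where the log2 difference was -0.02 (0.861).

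The next comparison asked how the KLF genes responded to lactate in SW480. Of the 10 genes, 7 rose and 0 fell: KLF2, KLF4, KLF5, KLF6 and KLF7 among the activators and KLF9 and KLF11 among the partners of SIN3A. Over all tested genes, 6.83% were called higher and 12.4% in either direction. The 10 log2 fold changes lay between 0.24 and 0.92 with a median of 0.68, all above 0, against a median of -0.006 over all tested genes, of which 49.3% lay above 0. In CPM, which leaves out the TMM scaling of the tests, the 3 lactate libraries all lay above the 3 control libraries for 9 of the 10 genes. This held for 18.9% of tested genes. Within SW480 lactate, replicate 3 was the highest library for 7 of the 10 genes and replicate 1 the lowest for 8. What part GC content has in this order was not tested. Together the 10 genes took 0.0923% to 0.107% of counts in SW480 lactate libraries and 0.0611% to 0.0677% in SW480 control libraries. In such bulk samples, more cells that express a gene and more of its RNA per cell cannot be told apart.

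**Figure D2:**
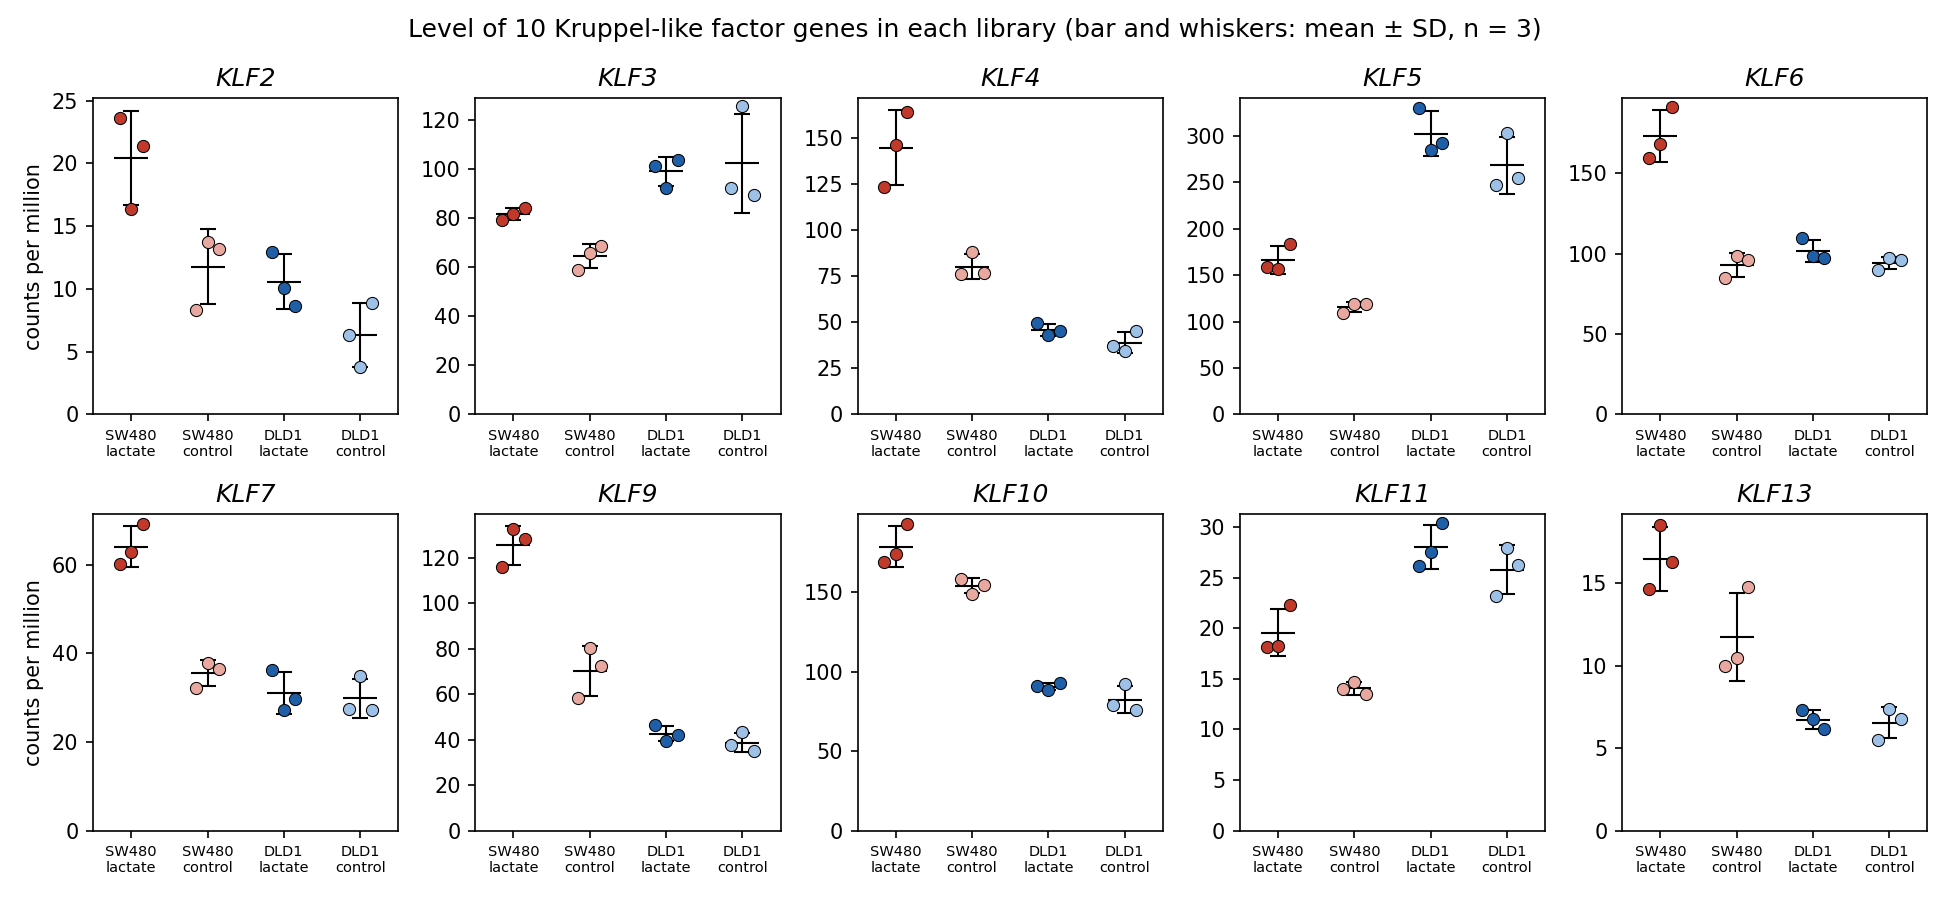
CPM of each of the 10 KLF genes in every library, with the mean and SD of each group (n = 3); each panel has its own axis from 0. In CPM, without the TMM scaling of the tests, the lactate and control libraries of SW480 overlap for KLF13 alone of the 10. Those of DLD1 are apart for KLF6 alone. With TMM scaling neither exception holds.

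KLF6, a tumour suppressor candidate and early response gene, had the smallest p of the family. It stood at 159.8, 168.5 and 191.5 CPM in SW480 lactate replicates 1 to 3, against 84.7, 98.6 and 95.9 CPM in SW480 control replicates 1 to 3. The lowest lactate library was well above the highest control library. The log2 fold change was 0.92 ± 0.10, or 1.89-fold (95% interval 1.64 to 2.19, adjusted p 8.79e-05). KLF4, which restrains division in the gut epithelium, had 124, 146 and 165 CPM in SW480 lactate and 76.1, 88.0 and 76.5 CPM in SW480 control libraries. The groups were again apart, and the log2 fold change was 0.87 ± 0.12 (1.83-fold, 1.53 to 2.20, adjusted p 5.40e-04). KLF7, known for its role in neurons, reached 60.2, 63.0 and 69.3 CPM in SW480 lactate, against 32.3, 37.8 and 36.6 CPM in SW480 control libraries. It rose by a log2 fold change of 0.87 ± 0.13 (adjusted p 9.45e-04) with no overlap between groups. These 3 calls held without any 1 of the 12 libraries.

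KLF5, which drives division in crypt cells, had 159, 157 and 183 CPM in SW480 lactate and 109.7, 118 and 119 CPM in SW480 control libraries. The groups did not overlap. Its log2 fold change was 0.54 ± 0.11 (1.46-fold, 1.25 to 1.70, adjusted p 0.00457), and the call held without any 1 of the 12 libraries, with adjusted p up to 0.0381. Per kilobase, KLF4 stood at 51.5 ± 7.26 and KLF5 at 46.6 ± 4.13 CPM in SW480 lactate libraries, whose ranges overlapped, as they did in the controls. KLF2, known best from the endothelium and from resting T cells, was a low gene, at 23.6, 16.3 and 21.4 CPM in SW480 lactate against 8.30, 13.7 and 13.2 CPM in SW480 control libraries. The lowest lactate library lay just above the highest control library. Its log2 fold change of 0.82 ± 0.26 passed narrowly (adjusted p 0.0490). The call of KLF2 held when DLD1 control 2 or 3 was left out (0.00498 and 0.0152, fits in which 24% and 17.1% of all genes were called) and was lost without each of the other 10 libraries, with adjusted p from 0.0578 to 0.237 and the largest without SW480 control 1.

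KLF9, a gene induced by glucocorticoids, had the largest log2 fold change of the 4 partners of SIN3A. It stood at 116, 133 and 128 CPM in SW480 lactate and 58.5, 80.2 and 72.5 CPM in SW480 control libraries. With no overlap, the log2 fold change was 0.86 ± 0.13 (1.81-fold, 1.503 to 2.19, adjusted p 8.02e-04), and the call held without any 1 of the 12 libraries. KLF11, a factor of the TGF-beta pathway, had 18.2, 18.3 and 22.3 CPM in SW480 lactate and 13.96, 14.7 and 13.5 CPM in SW480 control libraries. It rose by 0.50 ± 0.12 on the log2 scale (adjusted p 0.0159). The call was lost without SW480 control 1 (0.0756), control 3 (0.0669) or lactate 3 (0.0607). KLF11 overlaps an antisense gene on the opposite strand, AC104794.4, which has no row in the count table. The strand setting of the counting is not given, so the reads of these genes cannot be told apart.

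The other 3 genes did not pass the test in SW480. KLF3 had 79.3, 81.5 and 84.1 CPM in SW480 lactate and 58.9, 65.6 and 68.4 CPM in SW480 control libraries, with a log2 fold change of 0.37 ± 0.13 (adjusted p 0.0736). The groups did not overlap. KLF3 and its antisense gene KLF3-AS1 overlap on opposite strands, and the strand setting of the counting is not given, so their reads cannot be told apart; KLF3-AS1 itself had 2 to 21 counts per library. KLF10, the TGF-beta inducible early gene, had 169, 174 and 193 CPM in SW480 lactate and 158.5, 149 and 154.5 CPM in SW480 control libraries. Its log2 fold change was the smallest of the family, 0.24 ± 0.09 (95% interval 0.03 to 0.44, adjusted p 0.122). KLF13, best known from lymphocytes and heart, had 14.7, 18.6 and 16.3 CPM in SW480 lactate and 9.97, 10.5 and 14.8 CPM in SW480 control libraries, where control 3 lay above lactate 1. The TMM factors used in the test (0.976 for SW480 control 3, 0.951 for SW480 lactate 1) reverse the order of these 2 libraries. The log2 fold change of KLF13 was 0.51 ± 0.17 (adjusted p 0.0657). All 3 were called in DESeq2 (KLF3 0.0405, KLF10 0.0467, KLF13 0.0422) and with SW480 fitted alone (0.00121, 0.0111 and 0.0157), where 17.7% and 30.2% of all genes were called. KLF3 was also called with a replicate block (0.0440, with 13.3% of genes called), and KLF3 and KLF10 with a trend along GC content and length removed (4.53e-04 and 0.00702, with 28.6% called).

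**Figure D3:**
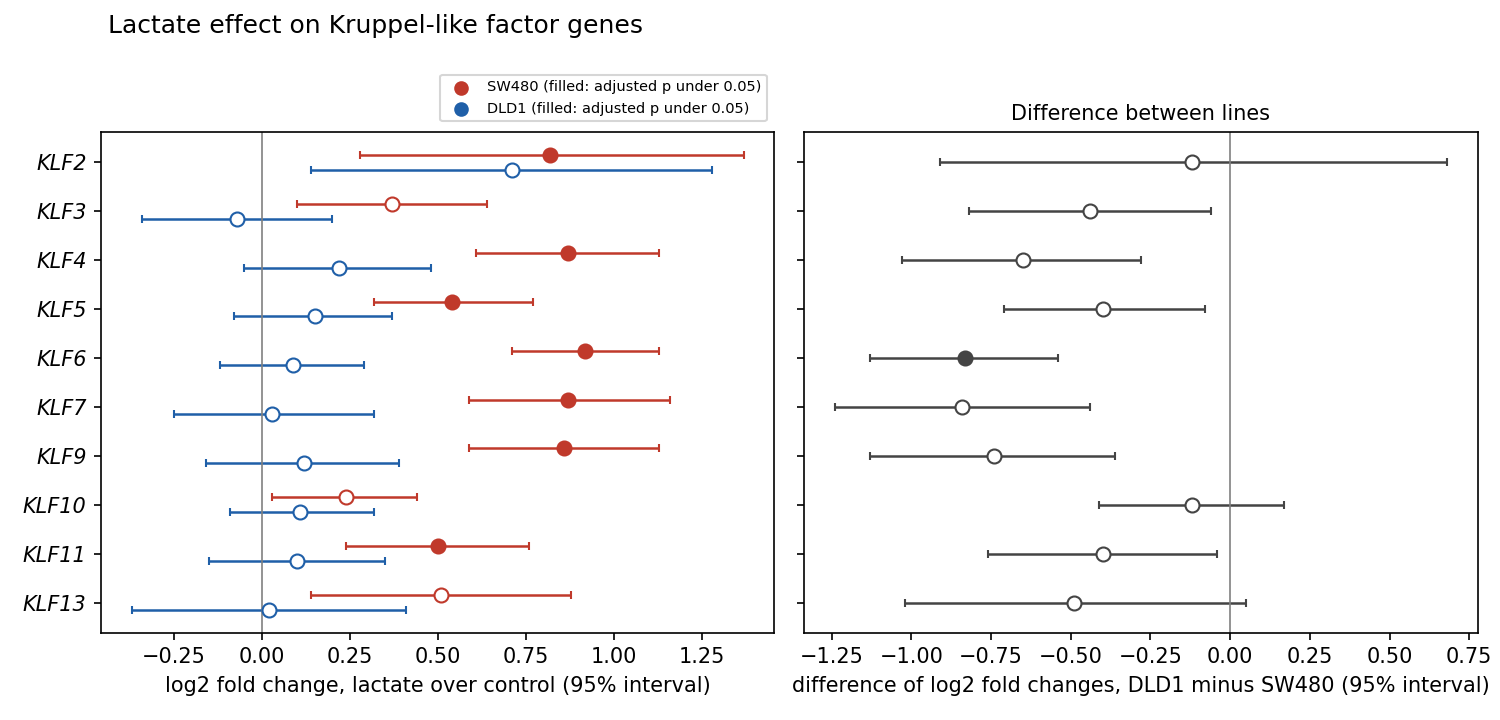
Left, log2 fold change of lactate over control with its 95% interval for SW480 (red, upper of each pair) and DLD1 (blue); right, the difference of the log2 fold changes, DLD1 minus SW480. Filled points have an adjusted p under 0.05: 7 genes in SW480, 0 in DLD1 and KLF6 for the difference.

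In DLD1 the same comparison called 0 of the 10 genes, in edgeR and in DESeq2, against 0.381% and 5.73% of all tested genes, and 1 (KLF2) had an unadjusted p under 0.05, as did 18.5% of genes. The log2 fold changes lay between -0.07 and 0.71 with a median of 0.11, against 0.017 over all tested genes. The 95% intervals left room for modest changes: for KLF6 -0.12 to 0.29, for KLF7 -0.25 to 0.32 and for KLF4 -0.05 to 0.48. KLF6 had 109.6, 97.2 and 98.5 CPM in DLD1 lactate replicates 1 to 3 against 90.1, 97.1 and 95.8 CPM in DLD1 control replicates 1 to 3. In CPM the groups were apart by a narrow margin (log2 0.09 ± 0.10, adjusted p 0.645), as they were in the upward direction for 10.7% of tested genes. The TMM factors used in the test (1.045 for DLD1 lactate 2, 1.014 for DLD1 control 2) reverse the order of the 2 closest libraries. KLF4 had 49.5, 45.3 and 43.2 CPM in DLD1 lactate and 36.9, 34.4 and 45.2 CPM in DLD1 control libraries, which overlapped (0.22 ± 0.12, adjusted p 0.348). KLF5 had 330.0, 292 and 285 CPM in DLD1 lactate and 247, 304 and 255 CPM in DLD1 control libraries, which overlapped as well (0.15 ± 0.10, adjusted p 0.449). KLF9 (0.12 ± 0.13), KLF10 (0.11 ± 0.10), KLF11 (0.10 ± 0.12), KLF7 (0.03 ± 0.13), KLF13 (0.02 ± 0.18) and KLF3 (-0.07 ± 0.13) were nearer to 0, and their groups overlapped.

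KLF2 had the largest log2 fold change of the family in DLD1, 0.71 ± 0.27 (95% interval 0.14 to 1.28, adjusted p 0.197). It stood at 12.96, 8.66 and 10.1 CPM in DLD1 lactate replicates 1 to 3 and at 6.30, 3.75 and 8.85 CPM in DLD1 control replicates 1 to 3. Lactate replicate 2 lay below control replicate 3. The transcript of KLF2 has the highest GC content of the 10, at 65.2%, against 41.5% for KLF3, the lowest. Across 15407 tested genes the lactate fold changes followed transcript GC content in DLD1 (Spearman's rho 0.57; genes are not independent replicates) and hardly in SW480 (0.06). The 2 DLD1 controls that stood apart along GC content were the lowest (control 2) and highest (control 3) for KLF2. Without control 2 its log2 fold change was 0.46 (adjusted p 0.374), without control 3 it was 1.01 (0.0169, a fit in which 21% of all genes were called), without a filter it was 0.71 (0.00858, with 2.37% called), and with the trend along GC content and length removed it was 0.43 (0.223). DLD1 control 2 was also the highest control library for 8 of the 10 genes, all but KLF2 and KLF4. With the trend removed KLF13 had a log2 fold change of -0.26 and KLF3 of 0.08 in DLD1, the opposite sign to the values above, and neither was called.

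**Figure D4:**
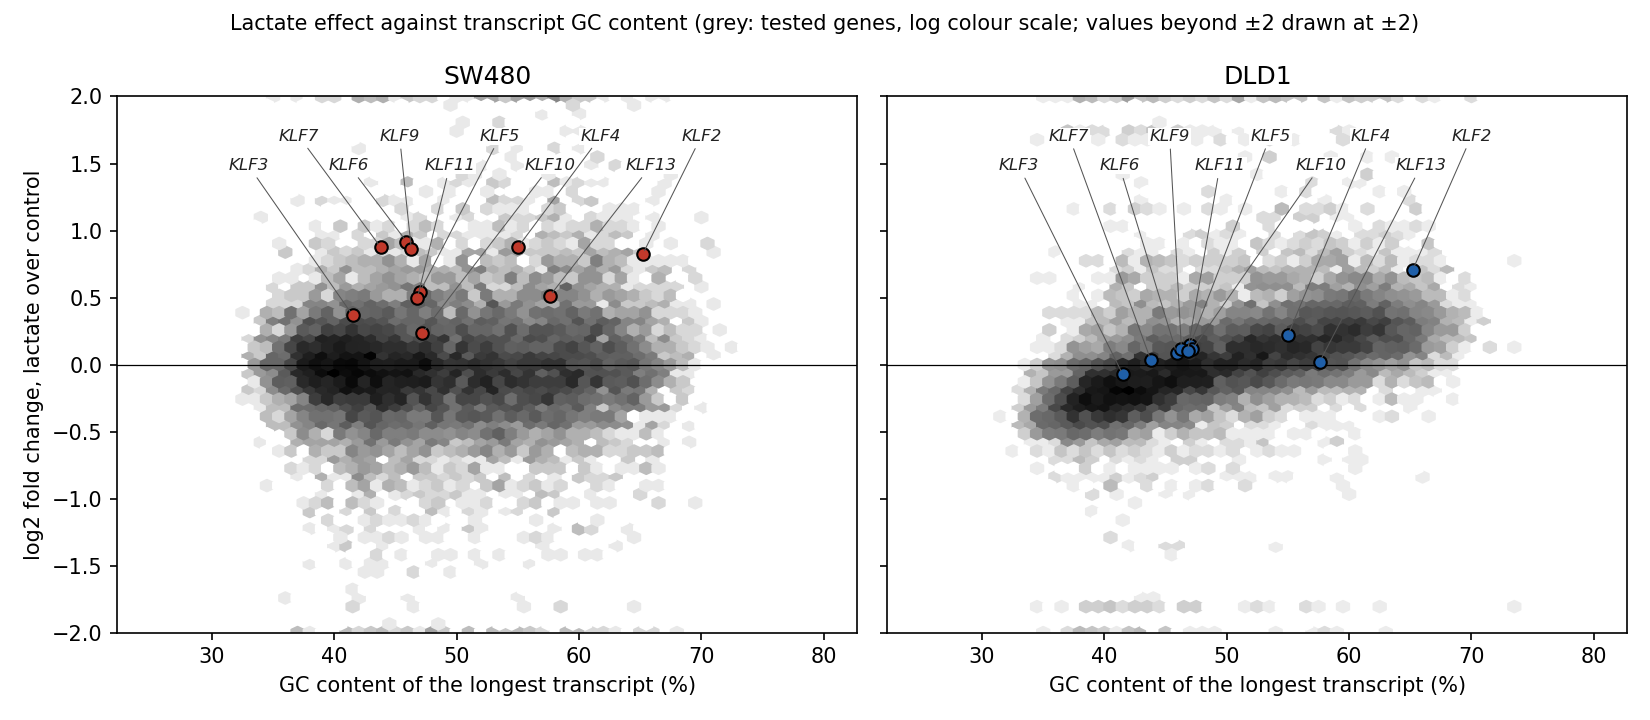
Log2 fold change of lactate over control against the GC content (%) of each gene's longest transcript in SW480 (left) and DLD1 (right), with tested genes in grey and the 10 KLF genes as labelled points. In DLD1 the grey cloud slopes upward (rho 0.57) and KLF2, at 65.2% GC, is the highest KLF point; in SW480 the cloud is level (0.06) and the 10 genes all lie above 0.

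Whether the response differed between the lines was tested as the difference of the log2 fold changes, DLD1 minus SW480. Over all tested genes the median difference was 0.013, and 51.2% were positive. For each of the 10 genes the difference was negative, from -0.84 to -0.12. It was called for 1, KLF6, against 0.728% of all tested genes, at -0.83 ± 0.14 (95% interval -1.13 to -0.54, adjusted p 0.0168). Leaving out any of 5 libraries took it past the threshold, namely SW480 control 1 (0.0688), SW480 control 3 (0.0599), SW480 lactate 2 (0.0532), DLD1 lactate 2 (0.0541) or DLD1 lactate 3 (0.0635). KLF7 (-0.84 ± 0.19, adjusted p 0.0552), KLF9 (-0.74 ± 0.18, 0.0698) and KLF4 (-0.65 ± 0.17, 0.0910) did not pass, and each was called in DESeq2 (0.00260, 0.00571 and 0.00908, with 4.6% of genes called). They were also called with the trend along GC content and length removed (6.47e-04, 0.00234 and 0.00252, with 8.16% of genes called), and so was KLF5 (0.0284). The same 3 were called without a filter (0.00317, 0.00737 and 0.0244, with 2.32% called), and KLF7 and KLF9 with a replicate block (0.0362 and 0.0352, with 1.56% called). For KLF2 the difference was -0.12 with a 95% interval of -0.91 to 0.68, too wide to tell its 2 responses apart.

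The genes whose level over the 12 libraries was most like that of a called KLF gene were found by the root-mean-square difference of log2 CPM, each gene centred on its own mean, among 11425 genes with a mean of at least 5 CPM. For KLF6 they were SERTAD2 (0.096), BCL10 (0.096) and JARID2 (0.111), where the median gene lay 0.577 away. SERTAD2 was also nearest to KLF7 (0.122), before HELZ (0.141) and KLHL24 (0.145). KLF4 was nearest to PPP1R15A (0.118), which helps dephosphorylate a translation factor under stress, to the surface receptor gene CD44 (0.123) and to FAM83G (0.142). Those for KLF9 were CNOT8 (0.118), SOCS2 (0.126) and LINC-PINT (0.129). KLF5 lay closest to CDK19 (0.096), HIP1 (0.109) and CDKN1B (0.119), and KLF11 to APPL2 (0.103), PPP2R2A (0.104) and NEDD4L (0.104). KLF2 had no neighbour as close, with ULK1 at 0.200, the early response gene JUNB at 0.230 and NATD1 at 0.241. Differences between the lines weigh in these distances as much as lactate does.

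Of 17 other KLF and SP genes, 5 had too few counts to test. In edgeR 0 of the other 12 were called in either line, against 12.4% of all tested genes in SW480 and 0.381% in DLD1. An unadjusted p under 0.05 was reached by 3 in SW480 and 1 in DLD1, against 27.3% and 18.5% of all tested genes. DESeq2 called 1 in SW480 (KLF12) and 0 in DLD1, against 17.7% and 5.73% of genes. The 3 of 12 in SW480 are thus near the share over all genes. Their median log2 fold change was 0.00 in SW480 and 0.14 in DLD1, against -0.006 and 0.017 over all genes. KLF12, which like KLF3 recruits CtBP and is named after its value was seen, had the smallest p of the list in SW480, at 27.0 against 19.1 CPM in lactate and control (0.52 ± 0.17, adjusted p 0.0532).

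Among 15 corepressor and coactivator genes, all tested, 1 rose in SW480 and 0 fell, against 6.83% of all tested genes called higher and 5.58% called lower, so the rise of 1 in 15 is near the share over all genes. Their median log2 fold change was -0.05, against -0.006. The gene that rose was HDAC3, a histone deacetylase (0.33 ± 0.10, adjusted p 0.0414), whose call was lost without each of 9 of the 12 libraries (0.0559 to 0.176) and held without SW480 lactate 3, DLD1 control 2 or DLD1 control 3. The call of HDAC3 was also lost with a replicate block (adjusted p 0.0557). It held in DESeq2 (0.00177) and with the trend along GC content and length removed (4.71e-05). In SW480 DESeq2 called 2 of the 15 (HDAC2 and HDAC3), against 17.7% of all genes. The fit with the trend removed called 4 (CTBP1, HDAC2, HDAC3 and WDR5), against 28.6%. In DLD1 0 of the 15 were called in edgeR and 0 in DESeq2, against 0.381% and 5.73% of all tested genes. An unadjusted p under 0.05 was reached by 2, against 18.5% of all genes.

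Of 17 genes that act upstream of KLF genes or on the turnover of KLF proteins, 2 that are described here rose in SW480, against 6.83% of all genes, and the list's median log2 fold change was 0.19, against -0.006. MEF2D, a MEF2 factor, averaged 138 ± 14.5 CPM in SW480 lactate and 81.1 ± 8.46 CPM in SW480 control libraries (0.79 ± 0.15, adjusted p 0.00435). SMAD3, a mediator of TGF-beta, averaged 40.3 ± 3.60 and 28.1 ± 1.17 CPM (0.54 ± 0.10, adjusted p 0.00409), and both calls held without any 1 of the 12 libraries. In DLD1 0 of the 17 were called in edgeR (0.381% of all genes) and 3 had an unadjusted p under 0.05 (18.5%). DESeq2 called 1 (5.73% of genes), MEF2D (24.4 and 15.96 CPM in DLD1 lactate and control).

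Genes reported as targets of KLF4 and KLF5 moved in both directions in SW480: of 16, 4 had too few counts, 3 rose and 2 fell. Over all tested genes 6.83% were called higher and 5.58% lower. The list's median log2 fold change was 0.11, against -0.006. The growth factor gene PDGFA averaged 74.4 ± 7.92 CPM in SW480 lactate and 20.8 ± 8.97 CPM in SW480 control libraries (1.88 ± 0.25, adjusted p 3.80e-04). CDKN1A, a cell cycle inhibitor gene that KLF4 activates, averaged 556 ± 46.4 and 349.6 ± 22.2 CPM (0.69 ± 0.14, adjusted p 0.00575). CCNB1, a mitotic cyclin gene that KLF4 represses and KLF5 activates, averaged 70.7 ± 3.502 and 141 ± 21.7 CPM (-0.98 ± 0.12, adjusted p 1.93e-04). These 3 calls held without any 1 of the 12 libraries. CDK1 changed by -0.46 ± 0.12 (adjusted p 0.0242), a call lost without SW480 control 1, control 3, lactate 1 or lactate 2 (0.0906 to 0.116). KRT19, named after its value was seen, rose by 0.71 ± 0.22 (adjusted p 0.0435). With each library left out in turn, its call held only without DLD1 control 2 or 3 (0.0573 to 0.172 otherwise). KRT19 was also called in DESeq2 (0.00924), with a replicate block (0.0121) and with the trend along GC content and length removed (1.66e-06). These fits called 17.7%, 13.3% and 28.6% of all genes. In DLD1 0 of the 12 tested were called in edgeR (0.381% of all genes), and 5 had an unadjusted p under 0.05 (18.5%). DESeq2 called 2 (CDK1 and KRT19), against 5.73% of genes.

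Of 14 genes reported as targets of KLF2, KLF6, KLF9, KLF10 or KLF11, 2 had too few counts, and 4 rose and 0 fell in SW480, against 6.83% and 5.58% of all tested genes. The list's median log2 fold change was 0.69, against -0.006. KLF4 and CDKN1A, already described, were 2 of the 4. BHLHE41, a repressor of the circadian clock, averaged 28.9 ± 4.03 CPM in SW480 lactate and 10.3 ± 2.32 CPM in SW480 control libraries (1.51 ± 0.17, adjusted p 1.05e-04). S1PR1, a receptor gene that KLF2 activates in lymphocytes, was low at 1.71 ± 0.207 and 0.632 ± 0.106 CPM (1.47 ± 0.36, adjusted p 0.0196), and its call was lost without SW480 control 1, control 3, lactate 2 or lactate 3 (0.0526 to 0.0958); DESeq2 gave it no adjusted p. In DLD1 0 of the 12 tested were called in edgeR (0.381% of all genes), and 3 had an unadjusted p under 0.05 (18.5%). DESeq2 called 1 (5.73% of genes), BHLHE41 (7.39 and 4.18 CPM in DLD1 lactate and control).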

How the data were processed

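Whole-number read counts per gene symbol were deposited by the authors, with no normalization, for 12 libraries. HISAT2 and GRCh38 are named in the submitters' processing notes; which counter, annotation and strand setting made the table is not given in the sources used here. Titles tied each of the 12 columns to its library, and 0 columns went unused. The analysis ran in edgeR 4.0.16 under R 4.3.3: filterByExpr by group (17572 of 54261 symbols), TMM scaling, and 1 robust quasi-likelihood model over all 12 libraries with 1 mean per group, with two-sided tests and Benjamini-Hochberg adjustment over all tested genes. Each SE was derived from the fold change and the F statistic. CPM uses library totals. Lengths and GC content come from the longest GENCODE 29 transcript, protein-coding ones first, and positions and promoters from RefSeq (GRCh38.p14). A GC content could be assigned to 87.7% of tested genes. Alternatives were median-of-ratios scaling, DESeq2 1.42.0, no filter, a stricter one (1 CPM in 3 libraries), a replicate block, the compared libraries alone, leaving out each library, and removal of a spline trend (5 degrees of freedom) along GC content and length within each library as offsets, so that a lactate effect along them is lost too. The fits were run on simulated counts with known changes, drawn with no difference between the lines. A GC trend was put into 1 DLD1 control library only. That check therefore does not cover the line differences or the GC patterns of these data. All 10 genes were named whatever their p, as were, by smallest p, up to 4 called genes per list, and the 3 genes most like each called KLF gene. The genes, lists and the trend removal were chosen with earlier results of these data known. A gene's depth limits its precision. The result of 1 gene of the list of upstream regulators is not reported here.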

Additional observations from a re-analysis of the deposited data

Results flagged for a closer look

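The lactate effect on KLF6 differed between the lines, with a log2 fold change lower by 0.83 in DLD1 than in SW480 (DLD1 minus SW480, -0.83 ± 0.14, adjusted p 0.0168 in edgeR's test of the difference). KLF6 averaged 173 and 93.1 CPM in SW480 lactate and control libraries and 102 and 94.3 CPM in DLD1 lactate and control libraries (n = 3 each). The adjusted p lay between 0.00124 and 0.0688 when each of the 12 libraries was left out in turn, and 7 of these 12 fits kept the call.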

How the results depend on the processing

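The number of KLF genes called in SW480 was 7 to 10 under each setting that left out no library of the fitted groups, and 5 to 10 with each library left out; between the untreated lines it was 8 or 9. In DLD1 it was 1 without a filter (KLF2) and 0 to 1 with each library left out. For the difference between lines it was 4 without a filter, 3 with a replicate block, 5 with the trend along GC content and length removed, 4 in DESeq2, and 0 to 4 with each library left out. Signs turned only for values that were not called: with the trend removed KLF3 in DLD1 was 0.08 and KLF13 in DLD1 -0.26, and with each library left out KLF3 ran from -0.17 to 0.11, KLF7 from -0.09 to 0.16 and KLF13 from -0.09 to 0.12 in DLD1, and the KLF2 difference from -0.36 to 0.19. The cause was not tested. Over all genes, calls in SW480 numbered 2181, 5023 with the trend removed and 4781 with SW480 fitted alone; in DLD1 67, 606 with the trend removed, 855 without a filter, 184 with the replicate block, 705 in DESeq2 and 1 with DLD1 fitted alone; and for the difference 128, 1433, 837, 274 and 695 in the same order without the last. Leaving out 1 library gave 689 to 4347 calls in SW480, 3 to 3791 in DLD1 and 9 to 1508 for the difference. The replicate block gave 8 called KLF genes in SW480 and 0 in DLD1; same-numbered lactate and control libraries correlated in their deviations from group means at 0.10, 0.00 and 0.17 in SW480 and -0.07, 0.06 and 0.12 in DLD1, so the numbers were not taken as pairs, and not every library correlated best with its own number. KLF2 and KLF13 had the widest intervals of the family. KLF11, also with few counts, had an SE of 0.12 in SW480, against 0.26 for KLF2 and 0.17 for KLF13. What set these widths was not tested.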
